A study of Mus musculus with 25 samples.

Results

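WT31 and D4M, a pair of established murine melanoma cell lines, were compared by RNA-seq of cultured cells. The libraries were chosen by the cell line in their labels, which gave 10 of the 25 libraries of the series, 5 labelled as biological replicates for each line. The WT31 cells came from mice of the genotype Tyr::NrasQ61K/°; INK4a-/-, in which the Tyr promoter drives a mutant Nras in melanocytes and INK4a, a product of the Cdkn2a locus, is lost. The D4M cells came from mice whose genotype includes Tyr::CreER and BrafCA but is not limited to them, and in which the Tyr promoter drives a Cre that switches on mutant Braf in melanocytes. The other 15 libraries, 5 each of B16F10 luc2, RET and HCmel12, entered the fit and are used here to show which line stood apart. All cells were untreated and harvested at a confluency of 50%. WT31 was grown in RPMI 1640 with 10% FCS and D4M in Advanced DMEM/F-12 with 5% FCS and glutamine, so that line and medium cannot be told apart in any result below. Each genotype is represented by 1 line, and no source used here says that the replicates of a line were separate cultures, so that the p-values measure the spread between these libraries.

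The lines were compared for genes of the melanocyte lineage, among other lists. Melanocytes arise from the neural crest, where Sox10 and Pax3 activate Mitf, the factor that in turn switches on the enzymes and transporters of pigment synthesis and the structural proteins of the melanosome, the organelle in which melanin is made. Melanoma cells can lose this programme and take on traits of mesenchymal cells, with receptors such as Axl, AP-1 factors such as Fosl1 and a rich extracellular matrix. Oncogenic Nras feeds both the Raf-Mek-Erk and the PI3K cascade, while mutant Braf feeds the first.

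Each of the 10 libraries held between 24199083 and 25679884 (D4M) or 24748382 and 25843286 (WT31) estimated counts. Levels are given as CPM, counts per 1000000 after TMM scaling, a scaling that sets aside the genes that differ most between libraries, and ± marks the SD over the 5 libraries of a line. The limit of detection was set at 3 counts, which corresponded to 0.111 to 0.116 CPM in WT31 and 0.128 to 0.138 CPM in D4M. CPM are not corrected for gene length, so that levels are compared between lines and not between genes. Within a line the libraries correlated at 0.9869 or more on the log2 scale, whereas the highest correlation between a WT31 and a D4M library was 0.765.

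Marker genes of cell types were compared between the lines. The pair was chosen with earlier results of these data known, so that the melanocyte markers are no independent check of the labels. All 12 melanocyte markers were also above 3 counts in every library of B16F10 luc2, RET and HCmel12. All 12 melanocyte markers were above 3 counts in every WT31 library, with a summed level of 19200 to 28200 CPM, against 3 of 12 (Mitf, Pmel and Rab27a) and a summed level of 6.84 to 61.1 CPM in D4M, where Gpr143 was at 0 and Oca2 at 3 counts or fewer. D4M held 10 of 11 fibroblast markers above 3 counts (731 to 1420 CPM, Lum at 0), WT31 6 of 11 (15.8 to 83.6 CPM). Of 8 Schwann cell markers, 7 were above 3 counts in WT31 (627 to 884 CPM) and 4 in D4M (9.59 to 19 CPM). Pecam1, Flt1 and Vwf, markers usual for endothelium, were above 3 counts in every D4M library, where the 8 endothelial markers summed to 172 to 222 CPM, against 0 of 8 and 0.19 to 1.37 CPM in WT31. Of 8 leukocyte markers, 2 were above 3 counts in every library of each line, Cd68 and Lyz2 in WT31 (8 markers summed to 4.31 to 12.3 CPM) and Cd68 and Csf1r in D4M (3.79 to 16.6 CPM). Keratinocyte markers were lower still in sum (1 of 8 in WT31, 0.304 to 0.665 CPM, and 0 of 8 in D4M, 0.4 to 1.02 CPM). Whether cells of another type contributed to D4M was not tested, and in bulk RNA fewer cells of a kind cannot be told apart from less RNA per cell.

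Of 15247 genes tested with voom and limma, 11605 (76.1%) differed between the lines at an adjusted p under 0.05 and are called below. In WT31, 5723 genes (37.5%) were higher and 5882 (38.6%) were lower than in D4M. A difference of at least 2-fold was called for 2839 higher genes (18.6%) and 2754 lower genes (18.1%). The WT31 and D4M libraries did not overlap for 9694 genes (63.6%). Most genes therefore differed, and each gene list below is read against these shares and against a median log2 fold change of -0.01 over all genes tested. Scaling by library size alone moved that median to 0.22 and the share of calls that were higher in WT31 from 49.3% to 62.4% (63.6% with TPM, transcripts per 1000000), so that small differences depend on the scaling. All log2 fold changes are WT31 minus D4M and are given with their standard error (SE).

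The engineered genes came first. Cdkn2a (chr4:89274471-89294653), which encodes the cell cycle inhibitor p16INK4a and p19ARF, had 2.66, 3.23, 2.79, 2.65 and 2.81 CPM in WT31 replicates 1 to 5 and 0.0459, 0, 0.089, 0.0444 and 0.128 CPM in D4M. Both lines were thus low, with the D4M libraries at or below 3 counts, and WT31 was 46-fold (95% counting interval 22.1 to 113) higher. Counts were summed per gene, so that p16INK4a and p19ARF cannot be told apart here. HCmel12 had 203 CPM. The neighbouring inhibitor Cdkn2b was at 41.9 ± 9.22 CPM in WT31 and at 0 in all 5 D4M libraries, and so was at least 315-fold higher in WT31. Nras (chr3:103058285-103067914) had 154, 146, 173, 169 and 192 CPM in WT31 and 140.1, 139, 138, 149 and 148 CPM in D4M. The libraries overlapped, and the log2 fold change was 0.22 ± 0.06 (adjusted p = 0.0017). The paper calls the NRAS mutation of WT31 human, while reads were assigned to the mouse build GRCm38.p6. How much of the Nras level came from the transgene was not tested. Braf (chr6:39603237-39725463) was at 24.8 ± 2.73 CPM in WT31 and 26.4 ± 1.07 CPM in D4M, a difference that did not pass the test (adjusted p = 0.25). Of 31 further melanoma drivers and suppressors tested, 13 were higher and 8 lower in WT31 (20 higher and 4 lower when scaled by library size alone). The 13 and 8 are 41.9% and 25.8% of the list, against 37.5% and 38.6% of all genes tested. Higher in WT31 were Ccnd3 (317 ± 29.4 against 111 ± 9.45 CPM), a D-type cyclin, and Ctnnb1 (1271 ± 127 against 559.6 ± 17.3 CPM), which encodes β-catenin.

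Transcription factors of the melanocyte lineage separated the lines in both directions. Of 15 tested, 9 were higher in WT31, 4 were lower and 2 were not called, with a median log2 fold change of 1.56. Sox10, the neural crest factor upstream of Mitf, had 909.6, 871, 920.0, 801 and 980.0 CPM in WT31 and 2.07, 0.133, 0.0445, 0 and 0.511 CPM in D4M. D4M replicate 1 was the highest of its line, far below every WT31 library. Mitf, the master regulator of pigment cells, had 444, 341, 444, 325 and 524 CPM in WT31 and an even 5.91 to 6.98 CPM in D4M (log2 fold change 6.0 ± 0.23, adjusted p = 2.3e-18), so that D4M kept a measurable amount. Pax3 had 217, 200.1, 225, 225 and 239 CPM in WT31 and 22.6, 21.1, 21, 20 and 20.2 CPM in D4M (log2 fold change 3.4 ± 0.07). Lef1, a partner of β-catenin, had 88.7, 112, 89, 96 and 86.2 CPM in WT31 and 3.53, 4.27, 3.3, 2.58 and 4.08 CPM in D4M (log2 fold change 4.74 ± 0.17). Higher in WT31 as well were Tfeb, a relative of Mitf that controls lysosomes (48.6 ± 13.6 against 3.48 ± 0.402 CPM), Sox5 (47.2 ± 4.45 against 10 ± 1.42), Zeb2 (295 ± 40.5 against 99.7 ± 9.98) and Foxd3 (38.7 ± 5.51 against 22 ± 2.54). Irf4, a target of Mitf, was at 2.16 ± 1.5 CPM in WT31 and at 0.0444 ± 0.0314 CPM in D4M.

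The 4 lineage factors that were lower in WT31 include early neural crest factors, whereas the neural crest factors Sox10, Pax3 and Foxd3 were higher. Tfap2b was at 0.101 ± 0.0458 CPM in WT31 and at 264 ± 22.3 CPM in D4M, 2611-fold (95% counting interval 1544 to 4903) lower in WT31. Sox2, a stem cell factor, had 15.6, 9.15, 9.19, 9.38 and 9.42 CPM in WT31 and 236, 276, 271, 257 and 200.2 CPM in D4M (log2 fold change -4.58 ± 0.11). The libraries did not overlap, and WT31 replicate 1 was the highest of its line. Sox9, which can take the place of Sox10 in cells that leave the melanocytic state, was at 1.39 ± 0.6 against 71.8 ± 10.1 CPM (log2 fold change -5.75 ± 0.30), and Tfe3, another relative of Mitf, at 50.9 ± 2.17 against 98.6 ± 9.16 CPM (log2 fold change -0.95 ± 0.06). Tfap2a (59.3 ± 9.32 against 64.1 ± 6.13 CPM, adjusted p = 0.27) and Snai2 (12 ± 2.76 against 14.1 ± 2.15 CPM, adjusted p = 0.071) were not called. The log2 fold change of Snai2 was -0.25, and -0.38 without WT31 replicate 1, where it was called lower (adjusted p = 0.0044). It was also called lower with DESeq2's size factors and without D4M replicate 2 or D4M replicate 3 (adjusted p = 0.034 to 0.044). Tfec was at or under 3 counts in both lines and was not tested.

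Most pigment synthesis genes were high in WT31 and near the limit of detection in D4M. Of 12 tested, 11 were higher in WT31, each at least 2-fold, and 1, Tpcn2, was not called (called lower with DESeq2's size factors or Wald test and without WT31 replicate 5 or D4M replicate 4). The median log2 fold change was 11.40, or 9.41 when levels under 3 counts were set to 3 counts. Tyr, the enzyme of the first step of melanin synthesis, had 3539, 3819.7, 4316, 3736 and 4487 CPM in WT31 and 0.805, 0.046, 0, 0 and 0.172 CPM in D4M. Tyrp1, an enzyme of eumelanin synthesis, had 3054, 2553, 4730.0, 3834 and 4654 CPM in WT31 and 27, 0.0444, 0, 0 and 2.85 CPM in D4M. Dct, the dopachrome tautomerase, had 6283, 5853, 7970.0, 6029.7 and 8009 CPM in WT31 and 10.7, 0.0957, 0.133, 0.0906 and 1.19 CPM in D4M. For each of the 3 enzymes the lines did not overlap, and D4M replicate 1 was the highest of its line. The log2 fold changes were 15.46 ± 0.91 for Tyr, 13.57 ± 0.97 for Tyrp1 and 13.78 ± 0.75 for Dct, and they rest on few counts in D4M.

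Transporters and receptors of the pigment cell followed. Slc45a2, a melanosomal transporter, was at 633 ± 101 CPM in WT31 and 0.219 ± 0.418 CPM in D4M. Oca2, which sets melanosomal pH, was at 113 ± 23 CPM and at 0 in 4 of 5 D4M libraries, and Gpr143, the receptor mutated in ocular albinism, at 42.4 ± 16 CPM in WT31 and at 0 in all 5 D4M libraries (at least 319-fold higher). Slc24a4, an ion exchanger linked to hair colour, was also at 0 in D4M and at 16.1 ± 12.1 CPM in WT31 (at least 121-fold higher). Its relative Slc24a5 was at 1495 ± 326 against 2.03 ± 1.36 CPM, where 40.2% of its 31-base sequences also occur in other genes, mainly Myef2. Mc1r, the receptor for melanocyte stimulating hormone, was at 483 ± 163 against 0.21 ± 0.35 CPM (20.1% shared). Genes with roles outside melanocytes differed less: Slc7a11, the cystine transporter, was at 251 ± 65.8 against 50 ± 12.3 CPM (log2 fold change 2.32 ± 0.21) and the copper pump Atp7a at 39.1 ± 5.45 against 15.4 ± 2.46 CPM (log2 fold change 1.35 ± 0.11). Tpcn2 was not called (10.2 ± 1.08 against 11.4 ± 1.32 CPM, adjusted p = 0.093).

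Of 32 melanosome genes tested, 18 were higher in WT31 and 7 lower (4 when scaled by library size alone, 3 with TPM), with a median log2 fold change of 0.81. Pmel, the fibril protein on which melanin is laid down, was at 1848 ± 558 CPM in WT31 and 2.08 ± 3.75 CPM in D4M. Mlana had 2086 ± 404 against 0.686 ± 1.44 CPM, the ion channel Trpm1 2210.5 ± 717 against 0.11 ± 0.111 CPM, and Rab38, which sorts cargo to melanosomes, 212 ± 25.3 against 0.854 ± 0.559 CPM. Of the proteins that move melanosomes along actin, Rab27a was at 152 ± 51.4 against 0.285 ± 0.134 CPM and Mlph at 273 ± 101 against 16 ± 1.12 CPM. Gpnmb, shared with lysosomes, kept 219.8 ± 48.2 CPM in D4M against 2696 ± 506 CPM in WT31 (log2 fold change 3.63 ± 0.12).

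D4M replicate 1 carried more of several of these transcripts than the other 4 D4M libraries. Its 27.0 CPM of Tyrp1 came from 588 counts, whereas no other D4M library exceeded 67 counts, and Mlana was at 3.26 CPM there against at most 3 counts elsewhere. Without this library the D4M means fell to 0.724 CPM for Tyrp1, 0.378 for Dct, 0.403 for Pmel, 0.0430 for Mlana, 0.172 for Sox10 and 0.0546 for Tyr. Mitf, at 6.98 CPM in that library, was close to the other D4M libraries. Other members did not share the excess. Trpm1 (0.0459 against a mean of 0.1265 CPM in the others), Slc7a11 (45.46 against 51.19), Atp7a (12.67 against 16.03) and Tpcn2 (10.65 against 11.6) were lower there. Gpr143 and Slc24a4 were at 0 in every D4M library. No gene named here lost its call without this library, and the source of these counts was not tested.

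**Figure D1:**
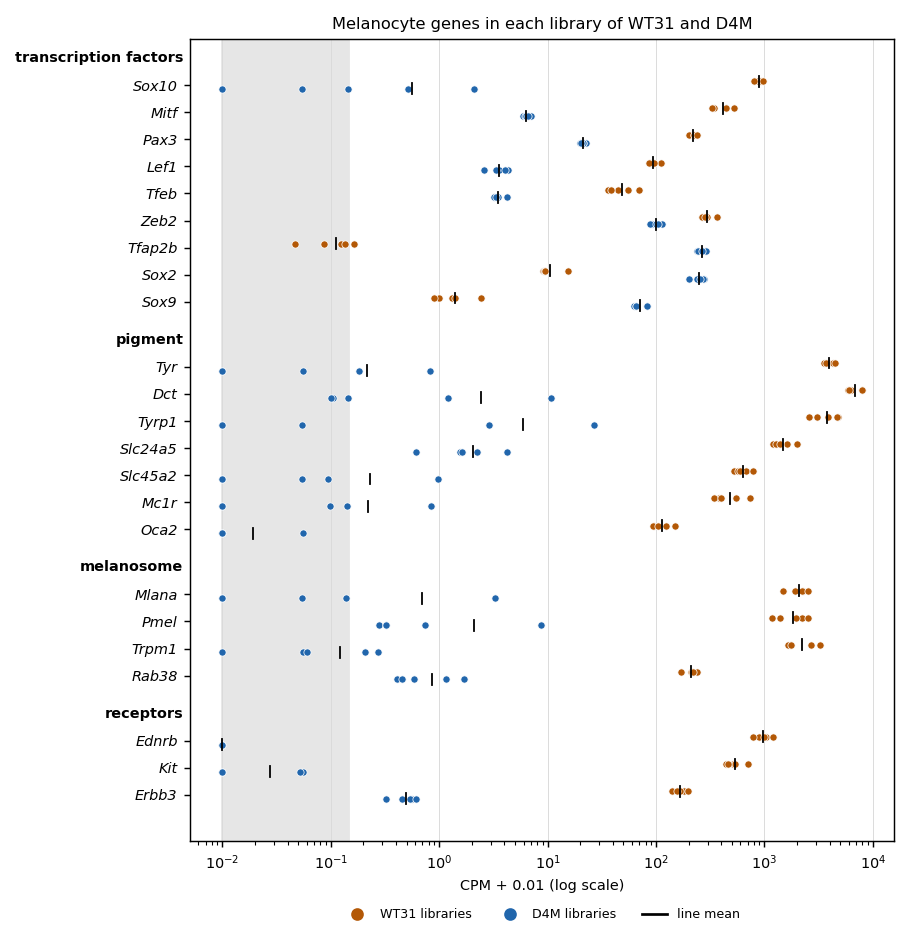
Level of melanocyte genes in each library, as CPM + 0.01 on a log axis, with WT31 and D4M libraries as points in 2 colours, the line mean as a bar and the range up to 3 counts shaded grey. Tyr ranges over 3539 to 4487 CPM in WT31 and is at or below 0.805 CPM in D4M, whereas Tfap2b, Sox2 and Sox9 lie on the opposite side.

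The promoters of these genes are shown because the Tyr promoter also drives the transgenes of both mouse models and because Mitf binds the letters CATGTG, the core of the M-box. RefSeq promoters of GRCm38.p6, from 250 bases before to 50 bases after the start, were searched on both strands. Only genes named by the rule given under processing were searched. Other named members, such as Mlph, Gpnmb, Jun, Foxc2 and Msx1, were chosen after their values were seen and were left out. Of 16 pigment and melanosome genes named by rule, 11 were matched, with 12 promoters. CATGTG was in 9 of these 12 and occurs in 14.2% of all 32851 promoters of this length. The AP-1 letters TGANTCA (7.81% of all promoters) were in 1 of 12 and the Tead letters GGAATG (14.7% of all) in 1 of 12. Of 8 AP-1 and mesenchymal factors named by rule, 4 were matched, with 5 promoters, of which 1 held CATGTG and 0 held either of the others. That promoter belongs to Mecom, which was higher in WT31, while the other matched factors, Fosb, Junb and Twist1, were lower. Gpr143, Mlana, Pmel, Rab38, Slc45a2, Fosl1, Maf, Tbx2 and Zeb1 were not matched. The 250 bases before the start of Tyr (chr7:87493513-87493762, minus strand), Dct (chr14:118052247-118052496, minus strand) and Tyrp1 (chr4:80833963-80834212, plus strand) follow 5′ to 3′, with Twist1 (chr12:33957421-33957670, plus strand), a gene high in D4M, for comparison. Capitals mark CATGTG or its reverse complement, which begins 21 bases before the start in Tyr, 46 bases in Tyrp1 and 232 (reverse strand) and 150 bases in Dct, while the Twist1 window has none of the 3 motifs.
Tyr: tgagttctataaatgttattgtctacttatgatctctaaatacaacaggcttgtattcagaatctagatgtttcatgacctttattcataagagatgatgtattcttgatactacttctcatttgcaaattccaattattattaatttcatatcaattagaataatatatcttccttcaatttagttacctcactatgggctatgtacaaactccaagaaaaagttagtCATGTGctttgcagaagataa
Dct: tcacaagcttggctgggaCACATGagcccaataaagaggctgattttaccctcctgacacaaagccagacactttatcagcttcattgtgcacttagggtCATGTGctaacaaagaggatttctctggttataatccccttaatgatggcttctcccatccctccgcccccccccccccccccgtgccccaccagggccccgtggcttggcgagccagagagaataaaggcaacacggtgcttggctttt
Tyrp1: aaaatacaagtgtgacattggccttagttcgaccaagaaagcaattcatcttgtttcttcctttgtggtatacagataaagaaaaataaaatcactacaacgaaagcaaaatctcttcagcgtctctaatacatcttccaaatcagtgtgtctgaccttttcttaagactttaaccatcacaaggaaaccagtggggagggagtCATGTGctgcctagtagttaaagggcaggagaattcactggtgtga
Twist1: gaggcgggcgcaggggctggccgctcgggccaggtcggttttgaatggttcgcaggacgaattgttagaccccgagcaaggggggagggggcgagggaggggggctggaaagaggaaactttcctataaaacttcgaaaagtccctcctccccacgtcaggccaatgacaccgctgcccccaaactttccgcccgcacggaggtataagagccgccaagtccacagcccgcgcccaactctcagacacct

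Receptors and signals that guide melanocytes differed in both directions. Of 14 tested, 5 were higher and 7 lower in WT31 (median log2 fold change -0.84). These are 35.7% and 50.0%, against 37.5% and 38.6% of all genes tested, and receptors and ligands were not counted separately. Ednrb, the endothelin receptor of melanoblasts, had 1028, 884, 983, 778 and 1200.2 CPM in WT31 and 0 counts in all 5 D4M libraries, at least 7328-fold higher. Kit, the receptor for stem cell factor, had 514, 439.6, 539, 458 and 701 CPM in WT31 and 0.0459, 0, 0, 0 and 0.0426 CPM in D4M, a ratio of 29977-fold (95% counting interval 8281 to 247005). The ligands named here lay on the other side. Kitl, the ligand of Kit, was at 0.32 ± 0.0942 CPM in WT31 and 137 ± 6.14 CPM in D4M (log2 fold change -8.71 ± 0.25). Erbb3, a neuregulin receptor, was at 168 ± 22 against 0.487 ± 0.113 CPM, and its ligand Nrg1 at 0.122 ± 0.0499 against 24.1 ± 5.81 CPM. Met, the receptor for hepatocyte growth factor, was higher in WT31 (272 ± 90.5 against 121 ± 13.4 CPM, log2 fold change 1.12 ± 0.15), whereas Hgf was at 0.00759 ± 0.017 against 2.63 ± 0.872 CPM. Kit, Erbb3 and Met were thus higher in WT31 and their ligands higher in D4M. Kitl, Nrg1, Met and Hgf were picked after their values were seen.

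Neural crest and Schwann cell markers were called in all 19 cases tested, 13 higher and 6 lower in WT31 (median 1.79). The adhesion molecule L1cam was at 82.3 ± 14.7 against 0.693 ± 0.2 CPM. Ngfr, the nerve growth factor receptor that marks neural crest-like melanoma cells, was at 60.9 ± 35.3 against 1.91 ± 1.06 CPM (log2 fold change 4.97 ± 0.61) and S100b at 92.4 ± 14.2 against 9.88 ± 2.25 CPM. Aqp1, a water channel, had the largest difference in the other direction, with 5.45 ± 3.53 CPM in WT31 and 755 ± 66.8 CPM in D4M (log2 fold change -7.39 ± 0.27).

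Mesenchymal factors and surface proteins were mostly lower in WT31. Of 22 mesenchymal transcription factors tested, 6 were higher and 14 lower (median -1.66). Twist1, a driver of epithelial-mesenchymal transition, had 0.19, 0.266, 0.465, 0.154 and 0.369 CPM in WT31 and 78.5, 99.2, 74.5, 70.6 and 72.3 CPM in D4M (log2 fold change -8.1 ± 0.26). Zeb1, which replaces Zeb2 when melanoma cells dedifferentiate, had 1.16, 0.949, 1.01, 0.884 and 1.26 CPM in WT31 and 96, 114, 101, 109 and 112 CPM in D4M (log2 fold change -6.64 ± 0.25). The libraries were separate in both genes. Snai1 (0.0383 ± 0.0542 against 19.3 ± 4.21 CPM), Foxc2 (0.19 ± 0.0284 against 46 ± 10.7), Msx1 (0.0528 ± 0.0424 against 22.7 ± 4.88) and Runx1 (0.654 ± 0.212 against 64.3 ± 3.16) were lower as well. Tbx2, a repressor of senescence genes in melanocytes, went the other way with 363 ± 87.2 against 3.71 ± 0.713 CPM (log2 fold change 6.6 ± 0.31), as did Mecom with 107 ± 10.7 against 0.85 ± 0.0817 CPM (log2 fold change 6.94 ± 0.21).

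Among 24 receptors and surface proteins linked to dedifferentiation, 5 were higher and 18 lower in WT31 (median -2.93). Axl, a receptor tyrosine kinase, had 53.1, 30.4, 28, 28.4 and 24.1 CPM in WT31 and 1215, 1283, 1248, 1161 and 1182 CPM in D4M (log2 fold change -5.27 ± 0.19, adjusted p = 5.8e-19). WT31 replicate 1 was the highest of its line and still far below D4M. Cav1, the main protein of caveolae, was at 0 counts in all 5 WT31 libraries and had 776, 1036, 579.8, 711 and 780.2 CPM in D4M (at least 6813-fold lower in WT31), and Cavin1, its partner, was at 9.51 ± 1.34 against 598 ± 85.2 CPM. The growth factor receptors Egfr (0.0894 ± 0.0464 against 12.5 ± 2.3 CPM) and Pdgfra (1.25 ± 0.256 against 59.5 ± 10.9 CPM) and the proteoglycan Cspg4 (1.81 ± 0.356 against 223 ± 39.1 CPM) were lower too. Ror2, a Wnt5a receptor, had 91.3, 97.3, 95, 118 and 86.7 CPM in WT31 and 0.184 to 0.489 CPM in D4M (log2 fold change 8.11 ± 0.28), and Ror1 was at 19.9 ± 2.04 against 0.211 ± 0.0899 CPM.

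Transcripts downstream of Erk were lower in WT31 more often than higher. Of 28 tested, 5 were higher and 19 lower (median -0.82). Fosl1, the AP-1 factor stabilised by Erk, was at 0.0224 ± 0.0331 CPM in WT31 and 226 ± 32.3 CPM in D4M, with 54.5% of its 31-base sequences shared with Ccdc85b. Dusp5, an Erk phosphatase, was at 1.79 ± 0.417 against 92.5 ± 32.8 CPM (log2 fold change -5.63 ± 0.32, 21.2% shared), Epha2 at 5.63 ± 1.4 against 239 ± 30.1 CPM (-5.43 ± 0.18) and the urokinase receptor Plaur at 1.12 ± 0.564 against 161 ± 33 CPM (-7.24 ± 0.40). Egr3, an immediate early gene, had 1.97, 2.09, 1.47, 1.46 and 2.25 CPM in WT31 and 49, 203, 45.9, 35.3 and 35.8 CPM in D4M (log2 fold change -4.94 ± 0.66). D4M replicate 2 stood above the other D4M libraries, and the lines did not overlap. Egr1 (3.35 ± 1.18 against 78.5 ± 54 CPM) and Hmga1 (129 ± 12.4 against 3909 ± 359.8 CPM, 62.1% of its sequences shared with Hmga1b and others) were also lower. The 5 members higher in WT31 were Phlda1 (710.4 ± 81.3 against 109 ± 20.3 CPM, log2 fold change 2.72 ± 0.12, 30.8% of its sequences shared), Etv5 (398 ± 67.1 against 125 ± 3.47 CPM, 1.65 ± 0.13, 30.3% shared), Dusp4 (340.3 ± 39.1 against 118 ± 12.4 CPM, 1.53 ± 0.10), Spry1 (20.8 ± 1.5 against 17.6 ± 0.923 CPM, 0.24 ± 0.09, 23.1% shared) and, with overlapping libraries, Dusp6 (181 to 307 against 99.7 to 261 CPM, 0.63 ± 0.16, adjusted p = 0.0012), all named here after their values were seen. Spry1 was not called with the DESeq2 Wald test or without WT31 replicate 2, D4M replicate 2 or D4M replicate 5 (log2 fold change 0.21 in each, adjusted p = 0.053 to 0.063).

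AP-1 factors were higher in 5 and lower in 10 of 17 cases (median -0.40). Fosb was at 0.393 ± 0.193 against 32.4 ± 6.09 CPM (log2 fold change -6.51 ± 0.36), Junb at 7.44 ± 1.65 against 71.2 ± 29.4 CPM (-3.2 ± 0.29), Jun at 69.1 ± 12.4 against 204 ± 50.6 CPM (-1.55 ± 0.13) and Maf at 1.12 ± 0.399 against 17.8 ± 2.31 CPM (-4.02 ± 0.28). In the PI3K and FoxO pathway 11 of 30 genes were higher and 14 lower (9 lower when scaled by library size alone), with a median of -0.09. The 11 and 14 are 36.7% and 46.7%, against 37.5% and 38.6% of all genes tested. Inpp4b, a lipid phosphatase (24 ± 5.29 against 4.87 ± 0.586 CPM), the catalytic subunit Pik3cd (16.6 ± 3.75 against 1.49 ± 0.483) and the regulatory subunit Pik3r3 (243 ± 71.3 against 75.2 ± 11.6, 23.7% of its 31-base sequences shared) were higher in WT31, and the Akt inhibitor Trib3 was lower (0.768 ± 0.188 against 10.3 ± 2.28). The Hippo pathway was balanced, with 12 of 26 genes (46.2%) in each direction (median -0.21), and Tead4 (12 ± 0.325 against 61.6 ± 4.79 CPM, log2 fold change -2.36 ± 0.11), Arhgef17 (1.15 ± 0.0933 against 208 ± 24.1 CPM) and Nt5e (0.0228 ± 0.034 against 3.17 ± 0.184 CPM) were lower in WT31.

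Genes of the extracellular matrix were lower in WT31 more often than higher. Of 33 laminins and matricellular proteins tested, 9 were higher and 23 lower in WT31 (median -3.22), and of 33 collagens 13 were higher and 19 lower (median -2.0). Spp1, osteopontin, had 4.4, 7.44, 5.74, 7.46 and 4.25 CPM in WT31 and 19067, 18345, 19445, 17824 and 16455 CPM in D4M. Thbs2, an inhibitor of angiogenesis, was at 0 in all 5 WT31 libraries and at 749 to 856 CPM in D4M (at least 6989.6-fold lower in WT31). Bgn, a small proteoglycan, was at 1.47 ± 0.58 against 1756 ± 113 CPM (log2 fold change -10.30 ± 0.29). Fibronectin (Fn1) was present in both lines, at 243 ± 75.1 against 2125 ± 307 CPM (log2 fold change -3.18 ± 0.22). Tgfbi (5.52 ± 1.26 against 318 ± 71.4 CPM) and Tnc (7.33 ± 5.36 against 334 ± 29.6 CPM) were lower in WT31. Among collagens, Col18a1 (10.1 ± 3.75 against 2162 ± 165 CPM), Col6a3 (0.136 ± 0.158 against 772 ± 158), Col3a1 (0.0226 ± 0.0338 against 472 ± 177), Col5a2 (0.129 ± 0.0626 against 266 ± 52.9) and the basement membrane chains Col4a1 (45.9 ± 10.9 against 707 ± 31.5) and Col4a2 (40.1 ± 9.83 against 435 ± 29.9) were lower. Other matrix genes were higher in WT31. Col11a1 was at 41.5 ± 8.09 against 0.775 ± 0.264 CPM (log2 fold change 5.74 ± 0.33), Col9a1 at 9.74 ± 2.91 CPM against 0 in all D4M libraries (at least 73.2-fold higher), Lama1 at 26.9 ± 3.46 against 0.0174 ± 0.0238 CPM and Fbln1 at 272 ± 33.4 against 12.1 ± 3.78 CPM (log2 fold change 4.55 ± 0.18). Col11a1, Col9a1, Lama1 and Fbln1 were chosen after their values were seen.

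Proteases, integrins and cadherins each held genes that differed in either direction. All 37 proteases and inhibitors tested were called, 11 higher and 26 lower in WT31 (median -1.34). Plau, the urokinase, had 0.493, 0.304, 0.349, 0.385 and 0.185 CPM in WT31 and 1447, 855, 1548, 1693 and 1137 CPM in D4M (log2 fold change -11.87 ± 0.52). Mmp3, stromelysin, was at 0 in all 5 WT31 libraries and at 197 ± 22.2 CPM in D4M (at least 1731-fold lower), Adam19 was at 0.0916 ± 0.0796 against 308 ± 16.3 CPM, and the inhibitors Timp1 (5.68 ± 1.07 against 588 ± 83.2 CPM) and Timp3 (0.228 ± 0.15 against 362 ± 68.5 CPM, 21.9% of its sequences shared, mainly with Syn3) were lower as well. Other proteases were higher in WT31, such as the gelatinase Mmp2 (309, 219.8, 222, 236 and 212 CPM against 39.4 to 63.6 CPM in D4M, log2 fold change 2.27 ± 0.10), Mmp15 (221 ± 16.7 against 3.73 ± 0.853 CPM, 5.92 ± 0.16) and Adam12 (128 ± 41.8 against 2.57 ± 1.66 CPM, 5.79 ± 0.38).

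Of 20 integrins tested, 5 were higher and 14 lower in WT31 (median -0.87). Lower were the laminin receptors Itga3 (2.64 ± 0.39 against 527 ± 91.3 CPM, log2 fold change -7.63 ± 0.19) and Itga7 (0.257 ± 0.0575 against 195 ± 32.6 CPM, -9.48 ± 0.38), the fibronectin receptor Itga5 (38.6 ± 3.14 against 368 ± 23.5, -3.25 ± 0.07), Itgb5 (2.1 ± 1.12 against 154 ± 31.5, -6.29 ± 0.27), Itgb3 (6.03 ± 1.24 against 93.7 ± 15.6, -3.96 ± 0.16) and the common partner Itgb1 (854 ± 112 against 1665 ± 119, -0.97 ± 0.08). Itga4, whose product binds Vcam1 and fibronectin (562 ± 107 against 92.1 ± 11 CPM, 2.6 ± 0.14), and Itga9 (24 ± 4.05 against 0.754 ± 0.128 CPM, 4.95 ± 0.34) were higher in WT31. The 13 cadherins tested were all called, 6 higher and 7 lower (median -1.31). P-cadherin, Cdh3, was at 17 ± 5.74 CPM in WT31 and 0.00888 ± 0.0199 CPM in D4M, Cdh19 at 45.8 ± 15.6 against 0.09 ± 0.0919 CPM and Cdh11 at 12.4 ± 3.84 against 0.045 ± 0.0563 CPM. Cdh13 (0.0378 ± 0.0268 against 157 ± 25.4 CPM) and N-cadherin, Cdh2 (151 ± 21.7 against 370.5 ± 25.7 CPM, log2 fold change -1.31 ± 0.09), were lower. E-cadherin, Cdh1, was near the limit in both lines (0.266 to 0.665 against 0.0444 to 0.341 CPM, overlapping), and its call (log2 fold change 1.82 ± 0.69, adjusted p = 0.02) was lost without D4M replicate 2 (1.56, adjusted p = 0.059) and with TPM.

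**Figure D2:**
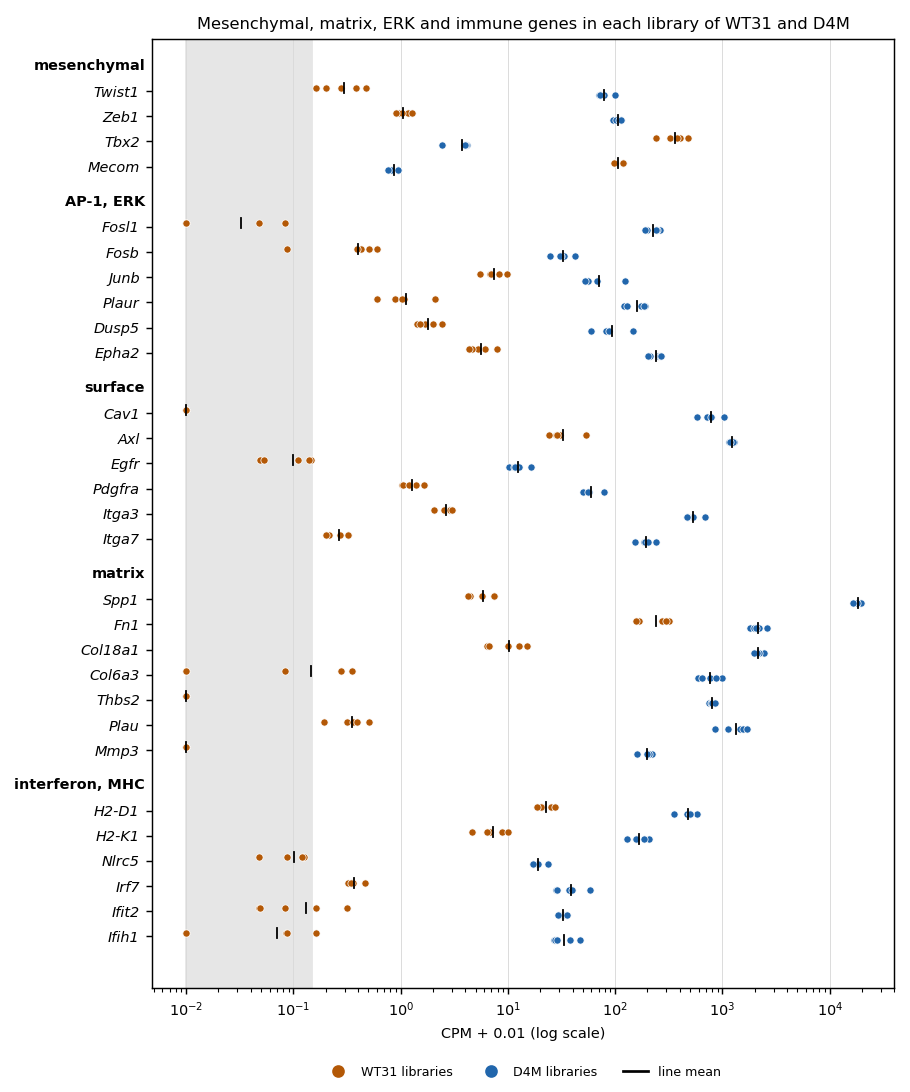
Level of mesenchymal, AP-1, Erk, surface, matrix and immune genes in each library, as CPM + 0.01 on a log axis, with WT31 and D4M libraries as points in 2 colours, the line mean as a bar and the range up to 3 counts shaded grey. Tbx2 and Mecom are higher in WT31, and the remaining genes shown, such as Axl (24.1 to 53.1 against 1161 to 1283 CPM), are lower.

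Angiogenic ligands and inhibitors were all called, 9 higher and 28 lower of 37 (median -2.96). Vegfa, the main vascular growth factor, had 25.5, 26.3, 22.1, 23.4 and 18.7 CPM in WT31 and 71.9, 60.1, 80.4, 74.3 and 62.5 CPM in D4M (log2 fold change -1.59 ± 0.17, adjusted p = 6e-09). Fgf2 was at 0.181 ± 0.15 against 51 ± 5.39 CPM, the guidance molecule Sema3a at 0.385 ± 0.19 against 428 ± 27.7 CPM and the co-receptor Nrp2 at 7.29 ± 4.78 against 311 ± 23.9 CPM. Vegfc, the lymphatic growth factor (33.3 ± 2.69 against 1.08 ± 0.248 CPM, log2 fold change 4.94 ± 0.19), pleiotrophin, Ptn (195 ± 22.6 against 30.1 ± 9.53, 2.74 ± 0.14), and adrenomedullin, Adm (34 ± 5.62 against 2.46 ± 0.879, 3.82 ± 0.24), were higher in WT31. Of 23 chemokines and cytokines tested, 5 were higher and 14 lower (median -1.44). With no filter on low counts 22 were lower, and 3 were higher with at least 10 counts required in every library of a line or with only the 10 libraries fitted. Ccl2, which attracts monocytes, was at 0.00776 ± 0.0173 against 42.6 ± 4.37 CPM, Cx3cl1 at 0.959 ± 0.288 against 243 ± 39.3 CPM, Il11 at 0.00743 ± 0.0166 against 25.6 ± 7.78 CPM, and the macrophage growth factors Il34 (0.897 ± 0.258 against 43.2 ± 4.92 CPM) and Csf1 (13.5 ± 1.04 against 199 ± 31.5 CPM) were lower. Cxcl10 was higher in WT31 (16.6 ± 5.32 against 6.3 ± 1.23 CPM, log2 fold change 1.34 ± 0.30).

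Antigen presentation was lower in WT31 throughout the list. All 20 genes of MHC class I and antigen processing were called lower, 13 of them at least 2-fold, with a median log2 fold change of -2.95. H2-K1, a classical class I heavy chain, had 4.63, 6.81, 8.78, 6.3 and 9.9 CPM in WT31 and 157, 206, 158, 188 and 129 CPM in D4M (log2 fold change -4.55 ± 0.28, 22.8% of its sequences shared with H2-D1 and H2-Q10). H2-D1 had 20.6, 20.5, 25.2, 18.5 and 27.6 CPM in WT31 and 469, 579.9, 493, 498 and 354 CPM in D4M (-4.41 ± 0.16, 26.9% shared), so that both classical genes were separate between the lines. B2m, the common light chain, was high in both (390.4 ± 22.5 against 1780.1 ± 168 CPM, -2.19 ± 0.10). Nlrc5, the transactivator of class I genes, was at 0.0911 ± 0.0335 against 19.1 ± 2.69 CPM, the peptide transporter Tap1 at 0.928 ± 0.319 against 25.5 ± 3.67 CPM, and the immunoproteasome subunit Psmb8 at 0 in all 5 WT31 libraries against 9.73 ± 2.82 CPM (at least 85.3-fold lower). H2-Q4 (0.209 ± 0.132 against 45.1 ± 9.99 CPM) shares 53% of its sequences with H2-Q6 and others and is uncertain. Of 11 class II and checkpoint genes tested, 3 were higher (5 with no filter on low counts) and 8 lower (median -1.70), with Cd276 (22.3 ± 3.09 against 186 ± 18.4 CPM), Cd80 (0.329 ± 0.244 against 29.4 ± 3.04), Pvr (29 ± 3.31 against 149 ± 12), Lgals3 (16.9 ± 6.06 against 233 ± 37) and Cd274, which encodes PD-L1 (0.576 ± 0.341 against 2.46 ± 0.65), lower in WT31.

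Interferon response genes were lower in 34 of 41 cases and higher in 2 (4 when scaled by library size alone), with a median of -3.14. Irf7, which amplifies the response, was at 0.357 ± 0.0568 against 38.3 ± 12.2 CPM (log2 fold change -6.63 ± 0.53). The double-stranded RNA sensor Ifih1 was at 0.0609 ± 0.0635 against 33.4 ± 8.66 CPM, Ifit1 at 0.0689 ± 0.0635 against 26.8 ± 8.37 CPM, Ifit2 at 0.122 ± 0.114 against 32.6 ± 2.81 CPM and Oasl2 at 0.174 ± 0.0982 against 61.2 ± 24.9 CPM. Isg15 (0.273 ± 0.184 against 27.9 ± 11.3 CPM) and Bst2 (7.99 ± 0.76 against 163 ± 32.8 CPM) followed.

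Wnt pathway genes were higher in WT31 more often than lower. Of 37 tested, 22 were higher and 9 lower (median 0.75). Nkd1, Axin2 and Notum, feedback inhibitors that β-catenin can switch on, were among them. Axin2 and Notum were picked after their values were seen, and other feedback genes of the list are not given here. Nkd1 was at 629.9 ± 79.1 CPM in WT31 and 0.0359 ± 0.0373 CPM in D4M (17568-fold (95% counting interval 6934 to 65093) higher), Axin2 had 125, 135, 131, 139 and 171 CPM in WT31 and 1.61, 2.22, 0.801, 1.6 and 2.51 CPM in D4M (log2 fold change 6.39 ± 0.31), and Notum was at 26.5 ± 3.08 against 1.87 ± 0.838 CPM (3.93 ± 0.20, 33% of its sequences shared with antisense genes). The secreted inhibitors Wif1 (67.3 ± 33.2 against 0.0627 ± 0.0524 CPM) and Dkk3 (506 ± 53.7 against 0.107 ± 0.0692 CPM) and the factor Tcf7 (192 ± 16.4 against 36.6 ± 5.13 CPM, log2 fold change 2.4 ± 0.08) were higher as well. Of the ligands, Wnt5a was at 0 in all 5 WT31 libraries and at 6.8 ± 1.77 CPM in D4M (at least 59.6-fold lower), and Wnt7b was at 0.0681 ± 0.0777 against 53.5 ± 21.3 CPM.

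In the TGF-β and BMP pathway 16 of 39 genes were higher and 13 lower (median 0.05), and single members differed widely. The 16 and 13 are 41.0% and 33.3%, against 37.5% and 38.6% of all genes tested. Bmp7 was at 606 ± 39.8 against 0.0181 ± 0.0247 CPM, a ratio of 33564-fold (95% counting interval 9467 to 282316), while Bmp2 had 18.9, 12.7, 12, 12.2 and 12.3 CPM in WT31 and 576, 608, 634, 527 and 479.6 CPM in D4M (log2 fold change -5.39 ± 0.10). The BMP antagonist Grem1 was at 0.00789 ± 0.0177 against 863 ± 107 CPM. Id2, a direct target of BMP signals, was higher in WT31 (184 ± 36.1 against 6.66 ± 2.96 CPM, 4.92 ± 0.53). The activin subunits Inhba (0.638 ± 0.163 against 105 ± 11.7 CPM) and Inhbb (0 in all WT31 libraries against 18.4 ± 3.65 CPM) and Tgfb1 (39.5 ± 6.44 against 98 ± 21 CPM, -1.3 ± 0.15) were lower. Hox genes, which record the position of cells along the body axis, were higher in 10 (40.0%) and lower in 11 (44.0%) of 25 cases (median -0.39), or lower in 19 with no filter on low counts. Hoxb9 was at 188 ± 28.1 against 0.505 ± 0.187 CPM (log2 fold change 8.53 ± 0.68), while its neighbours Hoxb4 (0.0225 ± 0.0332 against 12 ± 1.72 CPM), Hoxb6 (0.198 ± 0.107 against 7.45 ± 0.516) and Hoxb7 (0.091 ± 0.0746 against 22.5 ± 1.62) were lower in WT31. Hoxd8, Hoxd9 and Hoxc6 were at 0 in all 5 WT31 libraries and at 45.3 ± 2.78, 10.6 ± 0.785 and 8.77 ± 1.53 CPM in D4M.

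Of 80 nuclear genes of oxidative phosphorylation, 64 were higher in WT31 and 4 lower (1 lower when scaled by library size alone or with TPM), but 3 reached 2-fold and the median was 0.36. Ndufa4, a subunit of cytochrome c oxidase, had 201, 204, 211, 201 and 194 CPM in WT31 and 30.9, 35.7, 30.6, 32.9 and 31.1 CPM in D4M (log2 fold change 2.65 ± 0.06). Ppargc1a, a coactivator of mitochondrial genes and a target of Mitf, had 40.3, 23.5, 31.6, 28.1 and 33.6 CPM in WT31 and 3.54, 2.62, 2.94, 2.13 and 3.15 CPM in D4M (3.44 ± 0.38), and Ndufa1 was at 38.2 ± 2.71 against 20.5 ± 2.9 CPM (0.91 ± 0.09). None of the 13 genes of mitochondrial DNA passed the limma test (median 0.06), whereas 5 were called higher with counts scaled by library size alone, 3 with TPM, 2 without WT31 replicate 5 and 1 with the replicate block or only the 10 libraries. mt-Co1 was at 9933 ± 1790.5 against 10218 ± 2306 CPM (adjusted p = 0.88, 63.9% of its sequences shared with nuclear copies).

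Glycolysis and hypoxia genes were lower in 26 and higher in 7 of 35 cases (median -0.74). Egln3, an oxygen sensor (2.52 ± 0.481 against 132 ± 24 CPM, log2 fold change -5.7 ± 0.21), the lactate transporter Slc16a1 (42.9 ± 5.02 against 377 ± 21.3, -3.14 ± 0.08), the glucose transporter Slc2a1 (48.7 ± 4.38 against 180.4 ± 28.3, -1.88 ± 0.09), Pkm (1313 ± 89.5 against 4254 ± 375, -1.69 ± 0.06, 34.7% shared) and Ldha (586 ± 24.1 against 1233 ± 79.4, -1.07 ± 0.06, 19.6% shared) were lower. The other lactate dehydrogenase, Ldhb, was higher (145 ± 6.37 against 4.98 ± 0.805 CPM, 4.87 ± 0.17, 33% shared), as was Aldoc (24.1 ± 3.77 against 0.364 ± 0.152 CPM, 6.04 ± 0.74). Cholesterol genes were higher in 21 and lower in 7 of 32 cases (median 0.63). The synthesis enzymes Tm7sf2 (67.2 ± 5.83 against 9.68 ± 2.43 CPM, 2.82 ± 0.15), Hmgcs1 (295 ± 67.4 against 111 ± 17.9, 1.4 ± 0.13) and Idi1 (252 ± 49.4 against 81.7 ± 7.99, 1.61 ± 0.10, 27.1% shared) were higher, while the fatty acid genes Fasn (255 ± 22.1 against 618 ± 87.6, -1.27 ± 0.10) and Srebf1 (148 ± 5.74 against 422 ± 27, -1.51 ± 0.08) and the exporter Abca1 (43 ± 11.1 against 206 ± 24.1, -2.29 ± 0.19) were lower. The media differed in serum, a source of cholesterol, and this cannot be told apart from the line.

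Stress and cell cycle lists were mixed. ATF4 targets were lower in 15 and higher in 4 of 23 cases (median -0.71). Aldh1l2 (4.47 ± 1.49 against 60 ± 6.83 CPM) and Stc2 (1.81 ± 0.508 against 19.4 ± 4.54 CPM) were lower, but the amino acid transporters Slc3a2 (1010.0, 1359.7, 1281, 1267 and 1478 CPM in WT31 and 188, 141, 171, 159 and 174 CPM in D4M, log2 fold change 2.93 ± 0.12) and Slc7a5 (729.9 ± 227 against 197 ± 27.7 CPM, 1.85 ± 0.15) were higher. Slc3a2 pairs with Slc7a5, Slc7a8 or Slc7a11 at the membrane, and each of these 4 was higher in WT31. Slc7a8 had 1885, 2525, 2352, 2214 and 2670.3 CPM in WT31 and 0 to 0.089 CPM in D4M, a ratio of 130869-fold (95% counting interval 36361 to 1084590.0). Of 27 ferroptosis and oxidative stress genes, 11 were higher and 6 lower (median 0.14), or 18 higher when scaled by library size alone and 17 with TPM. The 11 and 6 are 40.7% and 22.2%, against 37.5% and 38.6% of all genes tested. Nqo1, a target of Nfe2l2, was at 0.456 ± 0.252 against 125 ± 65.2 CPM (-8.03 ± 0.89) and Gch1 at 0.426 ± 0.0846 against 6.62 ± 1.21 CPM (-3.9 ± 0.22). Of 26 p53 targets, 7 were higher and 16 lower (median -0.56). Mdm2 (102 ± 5.36 against 224 ± 41.3 CPM, -1.11 ± 0.09) and Plk3 (7.48 ± 1.96 against 48.4 ± 6.74 CPM, -2.72 ± 0.19) were lower, Plk2 (94.1 ± 12.1 against 30.9 ± 1.23 CPM, 1.6 ± 0.10) was higher, and Cdkn1a, which encodes p21, was not called (262 to 411 against 256 to 400.1 CPM, adjusted p = 0.55).

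S phase and mitosis genes gave a count that rests on single libraries. Of 40 tested, 11 were higher, 6 lower and 23 not called (median -0.02). The 11 and 6 are 27.5% and 15.0%, against 37.5% and 38.6% of all genes tested. Without WT31 replicate 5 there were 19 higher and 3 lower, without WT31 replicate 1 there were 11 lower and without WT31 replicate 4 there were 10 lower, while scaling by library size alone gave 17 higher and 0 lower and TPM gave 0 lower. Cdk2 (201 ± 35.6 against 48.9 ± 2.88 CPM, log2 fold change 2.02 ± 0.11), which lies beside Pmel, and Ccne1 (85 ± 11.7 against 41 ± 2.81 CPM, 1.04 ± 0.14), which form the kinase that starts S phase, and E2f2 (34.7 ± 7.37 against 14.4 ± 1.28 CPM, 1.24 ± 0.13) were higher. Mki67 had 422, 353, 305, 339.9 and 155 CPM in WT31 and 363, 362, 341, 358 and 422 CPM in D4M and was not called (adjusted p = 0.1). Without WT31 replicate 1 it was called lower (log2 fold change -0.42, adjusted p = 0.023). The mitotic regulators Cdc20 (154, 132, 106, 157 and 48.7 CPM against 142 to 176 CPM in D4M, -0.52 ± 0.20, adjusted p = 0.018, 26.7% of its 31-base sequences shared) and Plk1 (203, 195, 174, 211 and 92.1 CPM against 210.0 to 278 CPM, -0.51 ± 0.16, adjusted p = 0.0063, 18.7% shared) were called lower with overlapping libraries. WT31 replicate 5 was the lowest library in both, and without it Cdc20 was not called (-0.22, adjusted p = 0.074). Scaling by library size alone ended the call of Cdc20 (-0.30, adjusted p = 0.17) and of Plk1 (-0.28, adjusted p = 0.12), as did TPM (-0.24, adjusted p = 0.32, and -0.19, adjusted p = 0.36), and a fit of the 10 libraries alone ended that of Cdc20 (-0.51, adjusted p = 0.094).

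**Figure D3:**
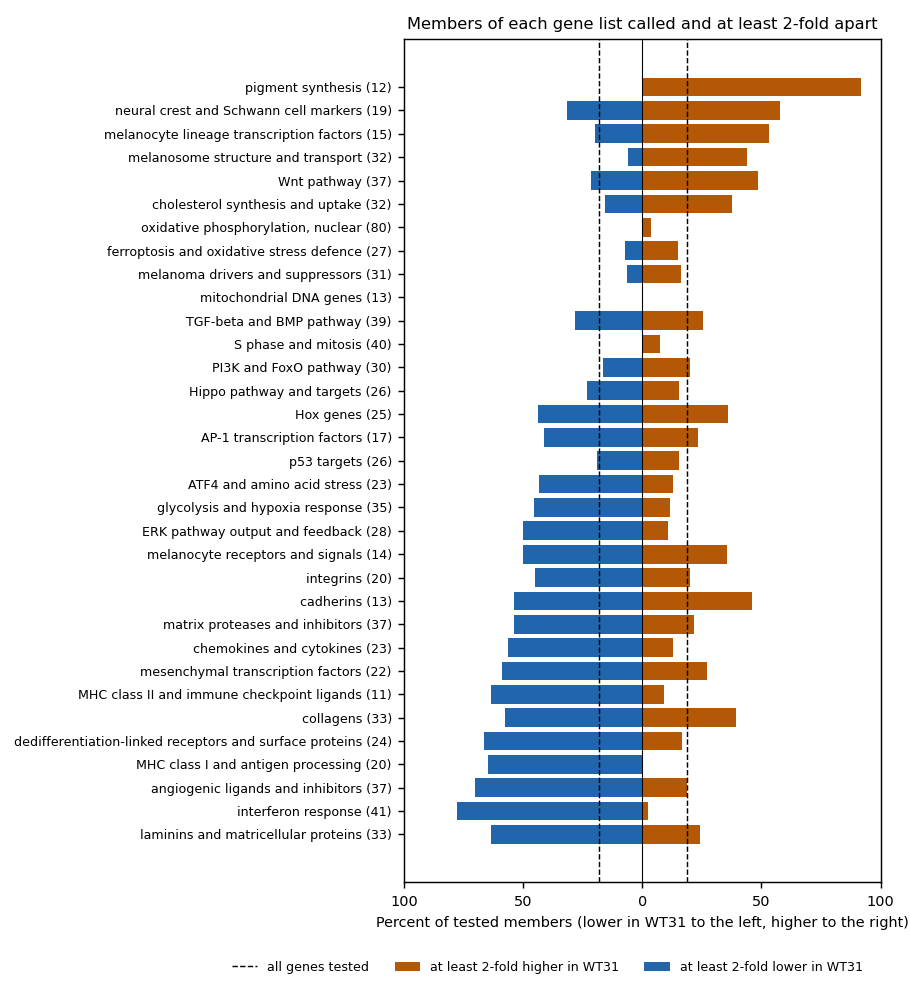
Share of the tested members of each gene list that were called and at least 2-fold higher (right) or lower (left) in WT31, with the number tested in brackets and dashed lines at the shares of all genes tested (18.6% and 18.1%). Pigment synthesis lies furthest to the right and interferon response, MHC class I and angiogenic genes far to the left, while mitochondrial DNA genes have no bar.

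Over all genes, those with the largest differences of log2(CPM + 1) repeated these themes and added others. The 10 highest in WT31 were Slc7a8, Tyr, Dct, Trpm1, Mlana, Tyrp1, Ednrb, Pmel, Armh4 (1135 ± 266 against 0.567 ± 0.0964 CPM) and Sox10. The 10 lowest were Spp1, Crabp1, Tmsb4x, Plau, Grem1, Thbs2, Cav1, Bgn, Col6a3 and Ank. Crabp1, a retinoic acid binding protein, was at 0.00759 ± 0.017 CPM in WT31 and 1089, 1144, 802, 1159.7 and 1226 CPM in D4M (142882-fold (95% counting interval 25602 to 5634100.0) lower in WT31). Tmsb4x, thymosin β4, which binds actin monomers and is abundant in most cells, was at 0.228, 0, 0.0388, 0 and 0 CPM in WT31 and 1145, 1049, 1003, 1118 and 1091 CPM in D4M. Ank, a pyrophosphate transporter, was at 0.632 ± 0.156 against 1074 ± 146 CPM (log2 fold change -10.71 ± 0.24).

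The other 3 lines show which of the 2 stood apart. Among the 5593 genes called with at least 2-fold, the means of B16F10 luc2, RET and HCmel12 were all nearer to WT31 in 2472 (44.2%) and all nearer to D4M in 1105 (19.8%). D4M lay on one side of all 20 other libraries in 2938 genes (52.5%) and WT31 in 1528 (27.3%). Of the 2754 genes lower in WT31, D4M stood apart in 1807 and WT31 in 537, and of the 2839 genes higher in WT31, D4M in 1131 and WT31 in 991. D4M stood apart in 10 of 11 pigment genes called with 2-fold and in 13 of 13 MHC class I genes, of which WT31 stood apart in 6 and 1 (both lines in 5 and 1). Sox10 had 612, 547 and 826 CPM in B16F10 luc2, RET and HCmel12. WT31 stood apart in 13 of 26 Wnt genes, 11 of 20 glycolysis and hypoxia genes and 7 of 13 ATF4 genes, of which D4M stood apart in 12, 9 and 0. Slc7a8 (1.2 to 2.11, 2.17 to 3.28 and 8.47 to 19.7 CPM in B16F10 luc2, RET and HCmel12), Ednrb, Bmp7 and Nkd1 were high in WT31 alone among the 5 lines, and Grem1, Crabp1, Bgn and Twist1 in D4M alone. Tmsb4x was low in WT31, at 1.12, 7.66 and 337 CPM in B16F10 luc2, RET and HCmel12. These are descriptions of lines chosen by their own calls, with no test.

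**Figure D4:**
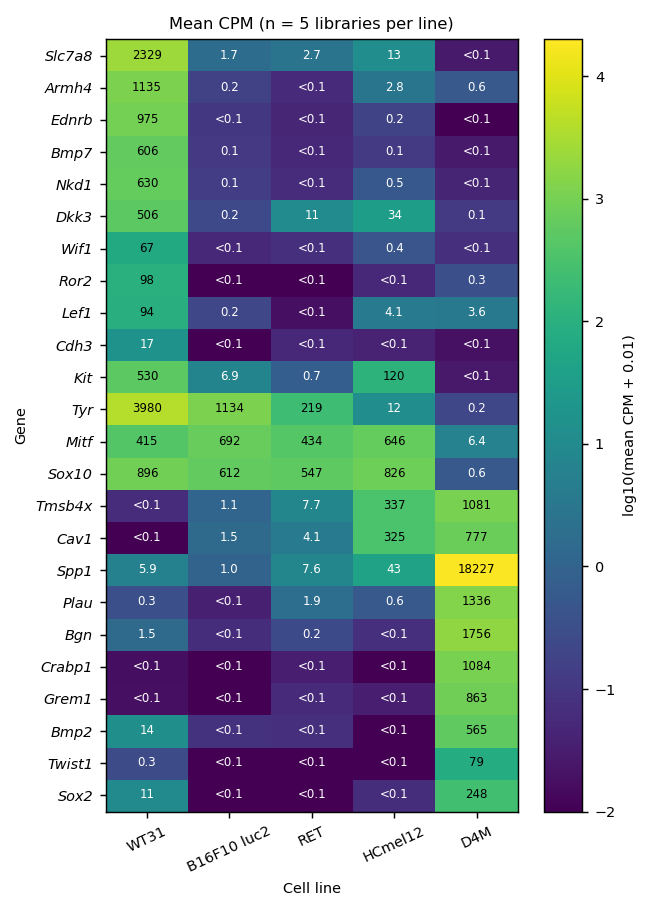
Mean CPM of 24 genes (rows) in the 5 lines (columns, n = 5 libraries each), printed in each cell and coloured on a log10 scale. Ednrb is at 975 CPM in WT31 and under 0.3 CPM in the other 4 lines, whereas Sox10 and Mitf are low in D4M alone and Spp1 reaches 18227 CPM there.

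Libraries of a line also moved together for whole lists. In WT31 replicate 5, S phase and mitosis genes had a median log2 deviation of -0.85 from the line median and were the lowest of the 5 libraries in 37 of 40 genes. The same library was the highest in 10 of 12 pigment genes (median deviation 0.38), in 26 of 31 melanosome genes (0.21) and in 25 of 30 cholesterol genes (0.24), and the lowest in 12 of 13 genes of mitochondrial DNA (-0.47). Collagens were highest in WT31 replicate 1 (18 of 25, median deviation 0.44) and lowest in replicate 2 (14 of 25, -0.54). In D4M replicate 4, interferon genes were highest in 27 of 41 cases (0.41), MHC class I genes in 12 of 20 (0.17) and genes of mitochondrial DNA in 13 of 13 (0.46). D4M replicate 2 was highest in 15 of 27 Erk genes (0.12) and 15 of 24 collagens (0.16). Except for S phase and mitosis and mitochondrial DNA genes, each of these shifts was smaller than the list's median log2 fold change between the lines. Their source was not tested.

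**Figure D5:**
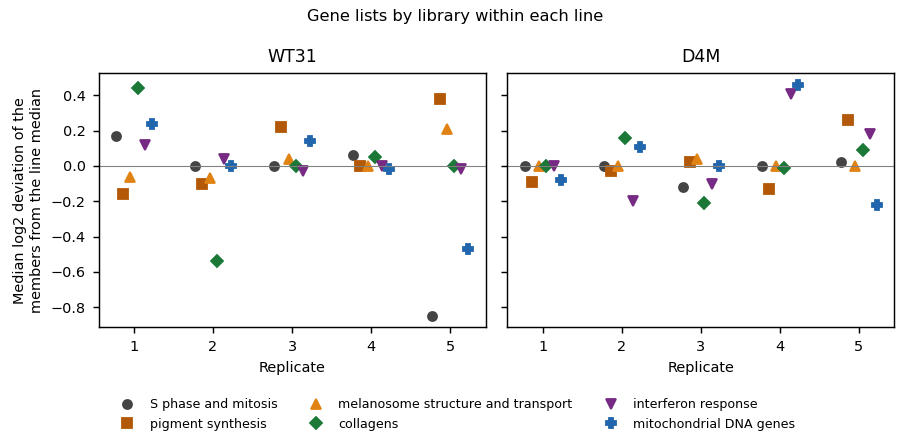
Median log2 deviation of the members of 6 gene lists from their line median (y axis) in each of the 5 libraries (x axis) of WT31 (left) and D4M (right). WT31 replicate 5 lies at -0.85 for S phase and mitosis and at 0.38 for pigment synthesis, and D4M replicate 4 at 0.41 for interferon response.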

How the data were processed

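RNA-seq of cultured cells was available for 25 libraries, of which the 5 of WT31 and the 5 of D4M are compared. The authors trimmed reads with Trim Galore (0.6.4), assigned them to GRCm38.p6 with kallisto (0.4.6 in the submitters' processing notes) and deposited estimated counts per gene (55385 genes) without normalization. They also deposited TPM values, scaled by transcript length to 1000000 per library. The fit of TPM used 24 libraries, since TPM of D4M replicate 1 were not used here. Kallisto divides reads between similar transcripts, and for named genes the share of 31-base sequences shared with other genes was counted. A symbol was found for 55144 genes in GENCODE M21 by identifier.

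Counts were filtered with filterByExpr by line and TMM-scaled (edgeR 4.0.16), transformed with voom and fitted with limma (3.58.1, R 4.3.3) with a mean per line over all 25 libraries. P-values were adjusted over 15247 genes by Benjamini-Hochberg at 0.05 with no fold limit. Estimated counts entered unrounded, except that they were rounded for edgeR's quasi-likelihood and DESeq2 (1.42.0) tests. A fold against a line at 0 counts is a lower bound at 3 counts per library. Ratios resting on few counts carry a 95% Poisson interval, and floors and intervals cover counting error only. The 34 gene lists and 6 marker lists get no test.

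The gene lists and the comparison were chosen with earlier results of these data known. By rule the text names engineered, lineage factor and pigment genes, the 4 called members of each other list with the largest difference of log2(CPM + 1), fixed adhesion and receptor genes, and the 10 genes at each end. This gave 155 genes, and further list members, to 234 in all, were chosen after their values were seen. Some items, among them part of the D4M genotype, are not reported here. The fit was tested on simulated data, and no result of that test is used here. As alternatives, scaling, test, filter, libraries fitted, replicate block, TPM with a pseudocount of 1 or 0.1, thresholds and leaving out each library were tried.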

Additional observations from a re-analysis of the deposited data

Results flagged for a closer look

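For the named genes, 414 sets of 5 libraries (a gene in 1 line, with a mean above 3 counts) were examined, and 41 of them (9.9%) held a library far from the other 4 (Dixon's criterion, 0.71 for 5 values, which chance meets in about 1 in 20 groups). All values are CPM.

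D4M replicate 1 was the highest of its line for Tyrp1 (27.0, others up to 2.85), Dct (10.7, others up to 1.19), Pmel (8.77, others up to 0.723), Mlana (3.26, others up to 0.128), Sox10 (2.07, others up to 0.511), Slc45a2 (0.964, others up to 0.0851), Mc1r (0.828, others up to 0.132) and Tyr (0.805, others up to 0.172), all genes high in the other lines, and for Adm (3.97, others 1.78 to 2.36) and Cdh1 (0.341, others 0.0444 to 0.128). The source of these counts was not tested.

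D4M replicate 2 was the highest of its line for the immediate early genes Egr3 (203, others 35.3 to 49.0) and Junb (123, others 52.8 to 67.9), for Ank (1330, others 961 to 1060), Cspg4 (291, others 196 to 221), Pdgfra (78.3, others 50.3 to 57.2), Pik3r3 (95.4, others 67.2 to 74.8), Twist1 (99.2, others 70.6 to 78.5) and Tfeb (4.17, others 3.20 to 3.47), and the lowest for Mertk (100, others 124 to 134). Other D4M libraries stood apart for Itga3 (replicate 3, 684, others 468 to 529), Armh4 (replicate 4, 0.4, others 0.577 to 0.638), Itga9 (replicate 4, 0.533, others 0.756 to 0.844), Tbx2 (replicate 4, 2.44, others 3.91 to 4.13), Cdh2 (replicate 5, 415, others 348 to 366) and Mki67 (replicate 5, 422, others 341 to 363).

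WT31 replicate 1 was the highest of its line for Axl (53.1, others 24.1 to 30.4), Sox2 (15.6, others 9.15 to 9.42), Snai2 (16.8, others 9.77 to 11.6), Jun (90.7, others 58.9 to 66.1), Tnc (16.7, others 4.21 to 7.15), Mmp2 (309, others 212 to 236), Cdh19 (73.0, others 35.7 to 44.7), Itgb5 (4.02, others 1.17 to 1.97), Cspg4 (2.43, others 1.51 to 1.73), Bmp2 (18.9, others 12 to 12.7) and Tap1 (1.48, others 0.721 to 0.931). Of these genes Mmp2 and Cdh19 were higher in WT31 than in D4M, Snai2 was not called, and the others were lower in WT31. WT31 replicate 2 stood out for Cdkn2a (3.23, others 2.65 to 2.81) and Irf7 (0.456, others 0.31 to 0.346). WT31 replicate 5 was the highest for Atp7a (48.7, others 35.6 to 37.7) and Cdh3 (27.0, others 13.3 to 16.6) and the lowest for Ccne1 (64.8, others 85.7 to 93.5).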

How the results depend on the processing

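The number of genes called lay between 11474 and 11605 when each library was left out in turn (5627 to 5762 higher and 5800 to 5930 lower in WT31). A limit of 2-fold left 5593 genes, 2839 higher and 2754 lower. Without a filter on low counts 30950 genes were tested and 9065 were lower. Of the 11605 calls, 10139 (87.4%) were called in the same direction when scaled by library size alone, with 12 called in the opposite one, and 9565 (82.4%) with log2(TPM + 1), with 36 opposite (9680 and 36 with a pseudocount of 0.1). Under each of the other scalings, tests, filters and left-out libraries, 92.4% to 99.1% kept their call and 0 were opposite. For the named genes, 4387 of 4421 alternative values kept direction and call, 12 lost the call, 10 gained it and 12 changed sign.

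The sign changed for genes close to 0 that were not called. Scaled by library size alone, Braf was at 0.12, Tfap2a at 0.10, Tpcn2 at 0.06 and mt-Co1 at 0.19. With log2(TPM + 1), Snai2 was at 0.05, Tfap2a at 0.06, Tpcn2 at 0.06 and mt-Co1 at 0.19. mt-Co1 was at 0.07 without WT31 replicate 5, 0.01 without D4M replicate 2 and 0.07 without D4M replicate 4, with -0.14 as its lowest value (without D4M replicate 5). When each library was left out, Cdkn1a ranged from -0.01 without D4M replicate 5 to 0.21 without WT31 replicate 5, and library size alone gave 0.32 (adjusted p = 0.044, against 0.55). Library size alone moves the median of all genes to 0.22, and the cause of the other changes was not tested. Calls of Cdc20, Plk1, Cdh1 and Spry1 were lost under some alternatives and those of Snai2, Tpcn2, Mki67 and Cdkn1a gained. For the lists, 32 of 1292 alternative counts moved by over 1.5 times, most often those of S phase and mitosis and of mitochondrial DNA genes. Genes near 3 counts are limited by depth.

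The replicate numbers did not pair the libraries. Deviations of same-numbered WT31 and D4M libraries from their line means correlated at -0.04 to 0.03, 0 of 5 over 0.1, and 2 of 5 WT31 libraries correlated best with the D4M library of their number. With the replicate number as a block 11616 genes were called, 5731 higher and 5885 lower.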

Other observations

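Hmga2, a chromatin protein of embryonic cells, was at 204 ± 29.7 CPM in WT31 and 1316 ± 67.9 CPM in D4M (log2 fold change -2.7 ± 0.17), and Mertk, a relative of Axl, at 40.8 ± 9.53 against 123 ± 13.4 CPM (-1.62 ± 0.10). Pmaip1, a death-promoting p53 target, was at 0.0238 ± 0.0218 against 6.09 ± 1.51 CPM and the stress gene Nupr1 at 0.144 ± 0.0568 against 25.7 ± 6.55 CPM, whereas Sesn1 was higher in WT31 (22.6 ± 1.24 against 8.59 ± 1.52 CPM, 1.41 ± 0.18), as was the DNA repair enzyme Ung (26.1 ± 3.7 against 14.7 ± 1.91 CPM, 0.82 ± 0.14). The cholesterol exporter Abcg1 was at 0.0305 ± 0.0495 against 4.1 ± 0.817 CPM.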
